A study of Mus musculus with 3 samples.

Results

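Transforming growth factor beta (TGF-beta) and bone morphogenetic protein (BMP) signalling was followed through 37 genes for its ligands, receptors, Smads, regulators and latency proteins, out of 19935 genes that could be named on the arrays. The genes were chosen by name and not by their values, although earlier results of these data were known. A gene was read from a probe set annotated with its symbol alone, and all 37 genes had such a probe set. The study cultured naive CD4+ T cells, helper T lymphocytes that have not yet met antigen, of wild-type, 8 weeks old mice of the C57BL/6 strain. One culture received IL-21, another IL-6 together with TGFb1, and the third medium with vehicle. Each culture was measured on 1 array, 3 arrays in all, so no spread between cultures is known, no test was possible and every difference compares 2 arrays. The labels used here give neither the cytokine doses nor the time in culture, and they do not say whether the T cell receptor was stimulated. TGFb1 was added together with IL-6, so what either of these cytokines did cannot be told apart.

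TGF-beta is made as a precursor that proteases cut and that stays latent until it is released from its propeptide. The active ligand brings type II and type I receptors together, and the type I receptor phosphorylates Smad2 and Smad3, which enter the nucleus with Smad4. BMP receptors signal through Smad1 and Smad5 in the same manner. Smad6, Smad7 and Smurf ubiquitin ligases dampen the signal, and several of its inhibitors are themselves switched on by it. In CD4+ T cells TGF-beta is known for its part in the development of regulatory T cells and, together with IL-6, of Th17 cells.

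Values are linear intensities of probe sets, and a difference is log2(intensity + 1) on one array minus that on another. A gene was compared when its highest intensity over the 3 arrays was at least 187, the median of all values, which kept 11003 genes and 32 of the 37. Tgfb2, Tgfb3, Acvr1, Acvr2a and Zfyve9 stayed below this limit. Of the 32 genes, 28 reached it on all 3 arrays, while Nrp1, Bmpr1a, Smad6 and Tgfbi reached it only where they were brighter. Among 474 genes with 2 probe sets above the limit, the 2 probe sets gave differences from medium that lay a median of 0.07 log2 units apart with IL-21 and 0.07 with IL-6 plus TGFb1, with 95th percentiles of 0.41 and 0.37. Between the treated cultures the median gap was 0.06 and the 95th percentile 0.35. These gaps compare probe sets within the same arrays. They were not split into measurement and other differences between probe sets, and they say nothing of how cultures vary. All 6 measured markers of CD4 T cells, among them Cd3e and Cd4, were above the limit on every array, while none of 6 myeloid and none of 3 NK cell markers reached it. Of the B cell markers 1 of 4 reached it, of the platelet markers 1 of 4, of the endothelial markers 1 of 4, of the fibroblast markers 2 of 4 and of the CD8 T cell markers 1 of 2.

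With IL-6 plus TGFb1, Pmepa1, Bmpr1a, Furin and Smad3 were between 1.89-fold and 1.98-fold above medium, and Nrp1 and Lrrc32 were 3.4-fold and 2.54-fold below it. With IL-21, Bmpr1a was 2.01-fold above medium, Smad3 was 1.41-fold above it, and Nrp1 and Lrrc32 were 1.6-fold and 1.59-fold below it. Between the treated cultures, Furin was 2.15-fold and Pmepa1 1.76-fold lower with IL-21, and Nrp1 was 2.12-fold and Lrrc32 1.6-fold higher with IL-21. Unlike Smad3, the receptor genes Tgfbr1 and Tgfbr2 and the Smad genes Smad2 and Smad4 lay within 0.18 log2 units of medium in both treated cultures.

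**Figure D1:**
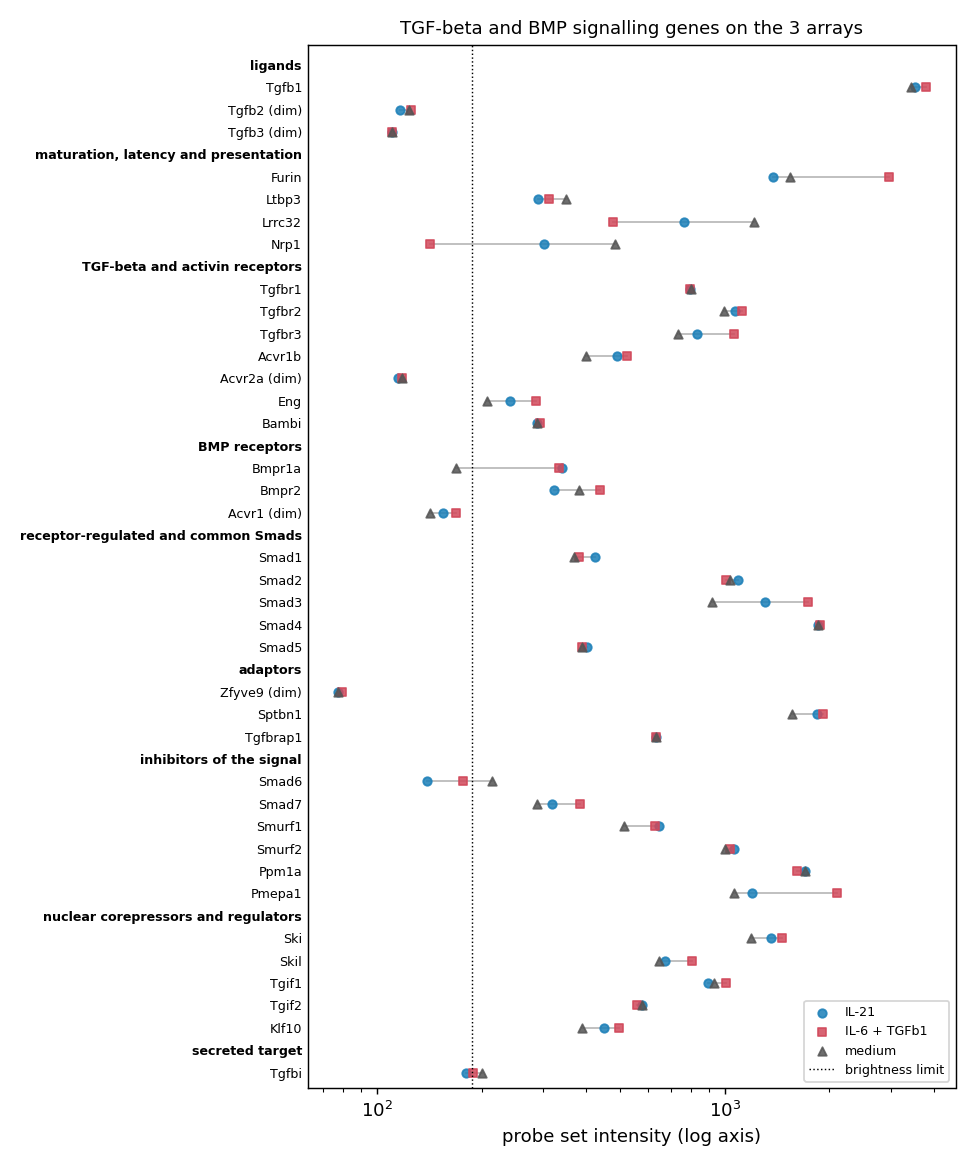
Intensity of the 37 TGF-beta and BMP signalling genes on the IL-21, IL-6 + TGFb1 and medium arrays, on a log axis and grouped by role; a point is 1 array, the grey line spans the 3 arrays and the dotted line is the brightness limit of 187. Furin, Smad3 and Pmepa1 were brightest on the IL-6 + TGFb1 array, at 2964, 1742 and 2107, and Nrp1 and Lrrc32 were dimmest there, at 142 and 478.

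Among the ligands, Tgfb1 was the only one above the brightness limit. Its intensity was 3527 with IL-21, 3796 with IL-6 plus TGFb1 and 3427 with medium. The 3 arrays were thus close for this gene, which encodes the same cytokine that was added to one of the cultures, and the differences from medium were 0.04 with IL-21 and 0.15 with IL-6 plus TGFb1. Tgfb2 had dim intensities of 116 with IL-21, 126 with IL-6 plus TGFb1 and 124 with medium. Tgfb3 was listed at 111 on all 3 arrays, an exact tie that carries no difference. Below the limit an intensity does not show whether the transcript was present.

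The genes for maturation, latency and presentation of TGF-beta included the 2 with the largest differences with IL-6 plus TGFb1, Nrp1 and Lrrc32. Furin encodes the proprotein convertase that cuts the TGF-beta precursor. Its intensity was 1380.3 with IL-21, 2964 with IL-6 plus TGFb1 and 1537 with medium. The IL-6 plus TGFb1 array thus stood above the other two, with a difference of 0.95 from medium that ranked 93rd from the highest among the 11003 compared genes. With IL-21 Furin differed from medium by -0.16, and IL-21 minus IL-6 plus TGFb1 was -1.10. Lrrc32 encodes GARP, which holds latent TGF-beta on the surface of regulatory T cells and platelets. Its intensity was 765 with IL-21, 478 with IL-6 plus TGFb1 and 1214 with medium. It was lowest on the IL-6 plus TGFb1 array, with differences from medium of -0.67 with IL-21 and -1.34 with IL-6 plus TGFb1. Nrp1 encodes neuropilin-1, a semaphorin and VEGF co-receptor that also binds TGF-beta and in mice marks regulatory T cells that arose in the thymus. Its intensity was 303 with IL-21, 142 with IL-6 plus TGFb1 and 485 with medium, in the same order of arrays as Lrrc32. The difference from medium was -0.68 with IL-21 and -1.76 with IL-6 plus TGFb1, which ranked 13th from the lowest. Since the IL-6 plus TGFb1 value was below the brightness limit, the size of that difference is less well measured. Ltbp3 encodes a latent TGF-beta binding protein that ties the latent complex to the matrix. Its intensity was 289.8 with IL-21, 313 with IL-6 plus TGFb1 and 350.4 with medium, a range that stayed within the 95th percentile of the gaps between probe sets.

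The markers of regulatory T cells were set beside Nrp1 and Lrrc32. Foxp3, the transcription factor that defines these cells, had an intensity of 629 with IL-21, 556 with IL-6 plus TGFb1 and 997 with medium. Ikzf2, which encodes the transcription factor Helios, had 403 with IL-21, 446 with IL-6 plus TGFb1 and 556 with medium, and Ikzf4, which encodes Eos, had 383 with IL-21, 436 with IL-6 plus TGFb1 and 355 with medium. The summed intensity of these 3 markers was 1415 with IL-21, 1438 with IL-6 plus TGFb1 and 1908 with medium, and 2 of the 3 were lower than medium in each treated culture. Foxp3 had the same order of arrays as Nrp1 and Lrrc32, highest with medium and lowest with IL-6 plus TGFb1, whereas Ikzf2 was lowest with IL-21. The part of these cells in the differences of Nrp1 and Lrrc32 was not tested, and on such arrays fewer cells of a type and less RNA per cell cannot be told apart.

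**Figure D2:**
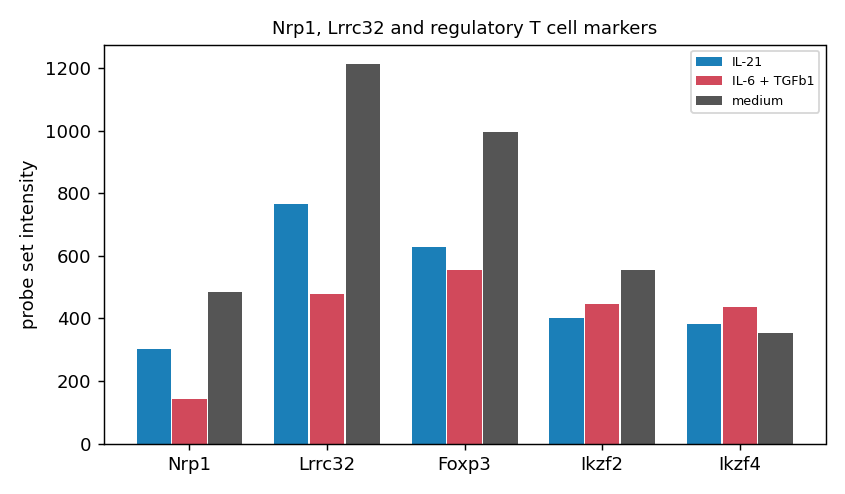
Intensity of Nrp1, Lrrc32 and 3 regulatory T cell markers on the IL-21, IL-6 + TGFb1 and medium arrays; each bar is 1 array. Nrp1, Lrrc32, Foxp3 and Ikzf2 were highest with medium, at 485, 1214, 997 and 556, whereas Ikzf4 was lowest there, at 355.

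The start-site regions of Furin, Nrp1, Smad3 and Bmpr1a are shown because these are the genes past 1.5-fold with IL-6 plus TGFb1 that had an entry. The RefSeq start-site table (GRCm38.p6) held 27 of the 37 genes, with 37 windows of 300 bases that run from 250 bases before to 50 bases after an annotated start. Capitals mark CAGAC on either strand, the core letters of the Smad-binding element. The palindrome TTCNNNGAA, the core of the site of STAT factors through which IL-6 and IL-21 signal, was searched as well and is in none of these 5 windows. Furin has 2 annotated starts, at chr7:80405387-80405686 and chr7:80402763-80403062 on the minus strand. Nrp1 lies at chr8:128358823-128359122 on the plus strand, Smad3 at chr9:63757945-63758244 on the minus strand and Bmpr1a at chr14:34502497-34502796 on the minus strand.
Furin upstream start: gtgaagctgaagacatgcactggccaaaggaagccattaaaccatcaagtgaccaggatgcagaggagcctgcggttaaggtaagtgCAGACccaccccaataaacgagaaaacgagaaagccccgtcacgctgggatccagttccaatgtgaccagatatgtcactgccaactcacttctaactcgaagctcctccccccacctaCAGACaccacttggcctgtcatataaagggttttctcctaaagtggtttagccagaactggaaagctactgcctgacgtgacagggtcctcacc
Furin downstream start: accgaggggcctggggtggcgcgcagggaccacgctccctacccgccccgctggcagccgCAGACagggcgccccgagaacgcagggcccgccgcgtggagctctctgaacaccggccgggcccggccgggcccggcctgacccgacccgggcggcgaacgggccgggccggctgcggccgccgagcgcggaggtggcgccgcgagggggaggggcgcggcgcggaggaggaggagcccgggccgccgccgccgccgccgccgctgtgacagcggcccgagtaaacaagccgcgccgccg
Nrp1: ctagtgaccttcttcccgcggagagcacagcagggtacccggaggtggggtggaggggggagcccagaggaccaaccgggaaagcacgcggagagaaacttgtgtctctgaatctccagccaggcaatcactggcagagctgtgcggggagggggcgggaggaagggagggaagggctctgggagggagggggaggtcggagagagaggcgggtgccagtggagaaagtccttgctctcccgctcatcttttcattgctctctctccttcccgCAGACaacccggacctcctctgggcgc
Smad3: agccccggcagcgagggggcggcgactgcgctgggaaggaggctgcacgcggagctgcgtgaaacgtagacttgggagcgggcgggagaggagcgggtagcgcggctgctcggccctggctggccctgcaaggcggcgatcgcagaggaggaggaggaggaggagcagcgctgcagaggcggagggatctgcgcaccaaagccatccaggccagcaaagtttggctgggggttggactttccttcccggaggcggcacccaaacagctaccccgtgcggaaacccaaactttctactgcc
Bmpr1a: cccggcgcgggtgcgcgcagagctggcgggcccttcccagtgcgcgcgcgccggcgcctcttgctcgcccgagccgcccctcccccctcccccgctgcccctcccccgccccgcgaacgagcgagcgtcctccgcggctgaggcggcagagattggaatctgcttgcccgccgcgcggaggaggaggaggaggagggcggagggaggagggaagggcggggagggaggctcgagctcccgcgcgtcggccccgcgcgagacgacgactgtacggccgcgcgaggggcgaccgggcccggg

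The upstream Furin window holds 2 matches to CAGAC, beginning 163 and 44 bases before the start, and the downstream window holds 1, beginning 190 bases before it. The Nrp1 window holds 1 match, which begins at base 24 of the transcript, and the windows of Smad3 and Bmpr1a hold none. Such matches are common. CAGAC occurred at least once in 49.6% of all 32851 windows of this length and at least 2 times in 16.2%, and in 18 of the 37 windows of the TGF-beta and BMP genes, or 48.6%. TTCNNNGAA occurred in 8.3% of all windows and in 1 of the 37, at Tgif1, and there was no overlap of the 2 motifs in any of the 37 windows. A match describes letters in the window and not binding of a factor.

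The TGF-beta and activin receptors lay closer to medium. Tgfbr1, the type I receptor of TGF-beta, had intensities of 796 with IL-21, 796 with IL-6 plus TGFb1 and 799 with medium. Tgfbr2, the type II receptor, had 1073 with IL-21, 1124 with IL-6 plus TGFb1 and 994 with medium, so both signalling receptors were nearly level over the 3 cultures. Tgfbr3 encodes betaglycan, a co-receptor that presents the ligand. Its intensity was 834 with IL-21, 1064 with IL-6 plus TGFb1 and 733 with medium, and its difference of 0.54 with IL-6 plus TGFb1 was the largest among these receptors. Eng encodes endoglin, another co-receptor, known best from endothelium. Its intensity was 241 with IL-21, 286 with IL-6 plus TGFb1 and 207 with medium, with a difference of 0.47 with IL-6 plus TGFb1. The summed intensity of 4 endothelial markers was 848 with IL-21, 819 with IL-6 plus TGFb1 and 854 with medium, and of these only Pecam1 was above the brightness limit. Acvr1b, a type I receptor of activin, had 492 with IL-21, 525 with IL-6 plus TGFb1 and 399 with medium, with differences from medium of 0.30 with IL-21 and 0.40 with IL-6 plus TGFb1. Bambi, a decoy receptor without a kinase domain, had 289 with IL-21, 295 with IL-6 plus TGFb1 and 289 with medium, and Acvr2a, a type II activin receptor, had dim values of 115 with IL-21, 118 with IL-6 plus TGFb1 and 118 with medium.

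Of the BMP receptors, Bmpr1a differed most. This gene encodes a type I BMP receptor, and its intensity was 341 with IL-21, 333 with IL-6 plus TGFb1 and 169 with medium. The treated arrays were alike, 0.03 log2 units apart, and the medium value lay below the brightness limit. The difference was 1.01 with IL-21 and 0.98 with IL-6 plus TGFb1, so the gene stood just past 2-fold in one culture and just short of it in the other. Both differences subtract the same medium array. With IL-21 it was short of 2-fold when 16 was added before taking logs, at 0.95. Bmpr2, the type II BMP receptor, had 322 with IL-21, 438 with IL-6 plus TGFb1 and 382 with medium. The treated arrays thus lay on either side of medium, and IL-21 minus IL-6 plus TGFb1 was -0.44. Acvr1, a type I receptor used by BMPs, was dim on all arrays, at 155 with IL-21, 169 with IL-6 plus TGFb1 and 142 with medium.

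Among the Smads that carry the signal, Smad3 was the only one past 1.5-fold. Its intensity was 1302 with IL-21, 1742 with IL-6 plus TGFb1 and 921 with medium, so IL-21 lay between the other cultures. The difference from medium was 0.50 with IL-21, beyond the 95th percentile of probe set gaps, and 0.92 with IL-6 plus TGFb1, which ranked 98th from the highest. Smad2, which shares the TGF-beta receptors with Smad3, had 1092 with IL-21, 1012 with IL-6 plus TGFb1 and 1033 with medium. Smad4, the common partner, had 1857 with IL-21, 1874 with IL-6 plus TGFb1 and 1857 with medium. Neither of these genes followed Smad3. The BMP Smads stayed within the 95th percentile of the probe set gaps. Smad1 had 423 with IL-21, 381 with IL-6 plus TGFb1 and 369 with medium. Its difference from medium was 0.20 with IL-21 and 0.05 with IL-6 plus TGFb1. Smad5 was closer to medium, with 402 with IL-21, 388 with IL-6 plus TGFb1 and 388 with medium. Among the adaptors, Sptbn1, a spectrin that binds Smad3 and Smad4, had 1839 with IL-21, 1919 with IL-6 plus TGFb1 and 1563 with medium. Tgfbrap1, which binds the receptors, was at 633 on all 3 arrays, and Zfyve9 (SARA), which brings Smad2 and Smad3 to the receptor, was dim at 77.1 with IL-21, 79.5 with IL-6 plus TGFb1 and 77.1 with medium.

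The inhibitors of the signal differed among themselves. Pmepa1 encodes a membrane protein that withholds Smad2 and Smad3 from the receptor and is itself a known TGF-beta target. Its intensity was 1196 with IL-21, 2107 with IL-6 plus TGFb1 and 1065 with medium. The IL-6 plus TGFb1 array stood apart, with a difference of 0.98 from medium that ranked 78th from the highest, while IL-21 differed from medium by 0.17. Smad7, an inhibitory Smad that is also a known target, had 319.6 with IL-21, 384 with IL-6 plus TGFb1 and 288 with medium, and its differences from medium were 0.15 with IL-21 and 0.41 with IL-6 plus TGFb1. Smad6, the inhibitory Smad tied mainly to BMP signals, had 139 with IL-21, 176 with IL-6 plus TGFb1 and 215 with medium. It thus lay on the other side of medium from Smad7, with a difference of -0.62 in the IL-21 culture and -0.28 in that with IL-6 plus TGFb1, although only its medium value was above the brightness limit. Smurf1, a ubiquitin ligase of Smads and receptors, had 646 with IL-21, 632 with IL-6 plus TGFb1 and 512 with medium, a difference of 0.33 with IL-21 and 0.30 with IL-6 plus TGFb1. Its relative Smurf2 had 1064 with IL-21, 1037 with IL-6 plus TGFb1 and 1004 with medium, and Ppm1a, a phosphatase of activated Smads, had 1699.9 with IL-21, 1616 with IL-6 plus TGFb1 and 1705 with medium. Both were within about 0.08 log2 units of medium in both treated cultures.

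Among the nuclear regulators no gene reached 1.5-fold. Skil, which encodes the corepressor SnoN and is a known TGF-beta target, had 673 with IL-21, 807 with IL-6 plus TGFb1 and 648 with medium. Its relative Ski had 1359 with IL-21, 1459.6 with IL-6 plus TGFb1 and 1194 with medium. Klf10, an early TGF-beta response gene, had 450.2 with IL-21, 496 with IL-6 plus TGFb1 and 389 with medium. These 3 genes were brightest on the IL-6 plus TGFb1 array, with differences from medium of 0.32 for Skil, 0.29 for Ski and 0.35 for Klf10, which lie within the 95th percentile of the probe set gaps. The homeodomain corepressor gene Tgif1 had 897 with IL-21, 1008 with IL-6 plus TGFb1 and 931 with medium. Tgif2 had 578 with IL-21, 559 with IL-6 plus TGFb1 and 578 with medium. Tgfbi, a secreted matrix protein gene named for its induction by TGF-beta, was at 181 with IL-21, 189 with IL-6 plus TGFb1 and 201 with medium, near the brightness limit and without a higher value in the culture that received TGFb1.

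**Figure D3:**
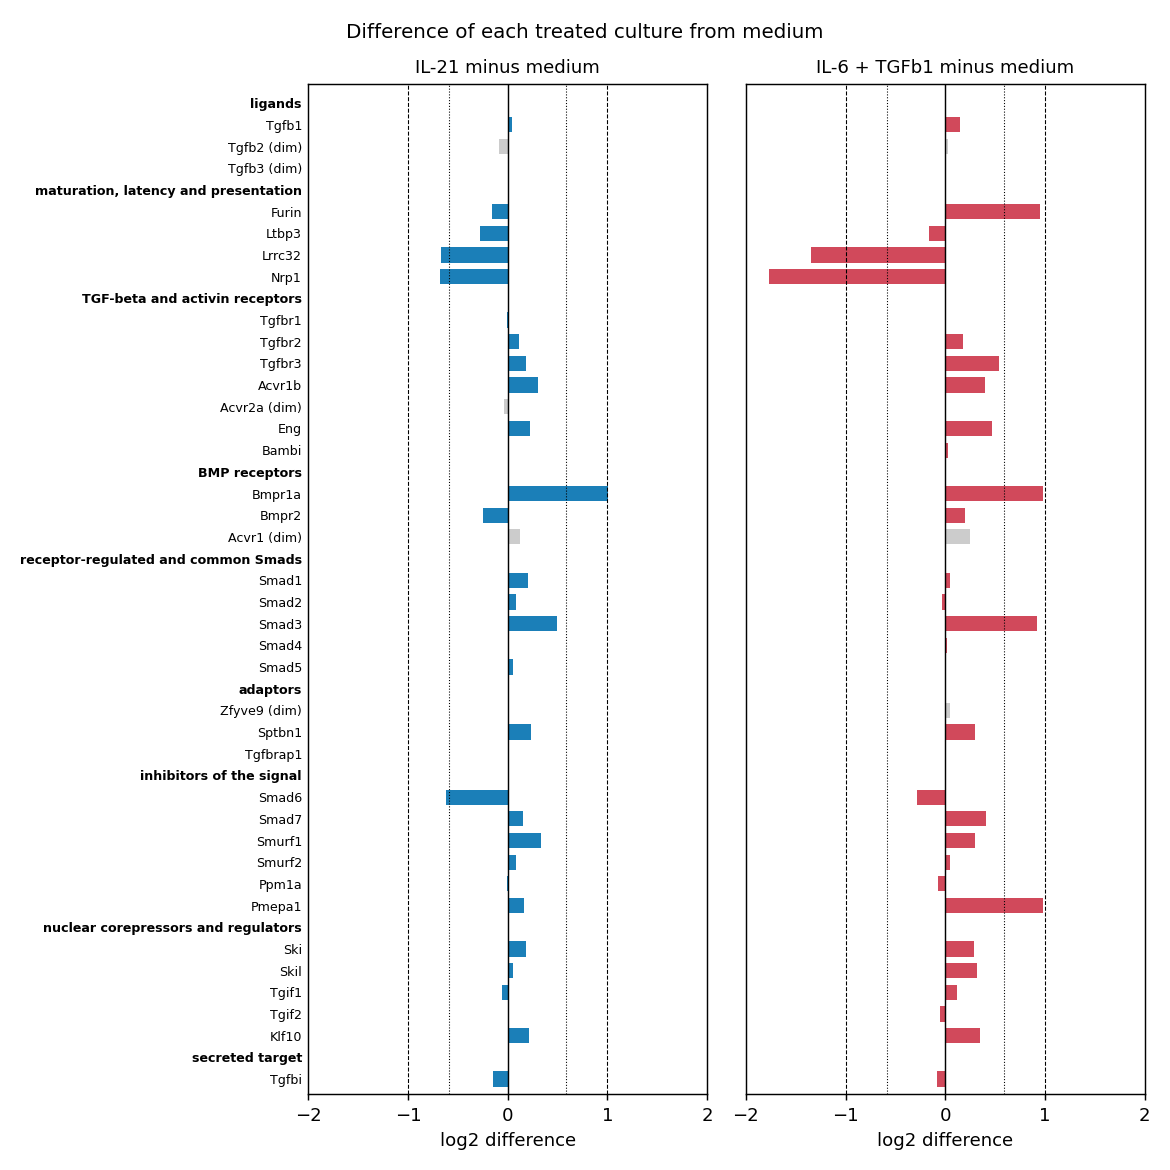
Log2 difference of the IL-21 array (left) and the IL-6 + TGFb1 array (right) from the medium array for the 37 genes by role; grey bars are genes below the brightness limit, dotted lines mark 1.5-fold and dashed lines 2-fold. Against medium IL-21 gave 1.01 for Bmpr1a, -0.68 for Nrp1 and 0.17 for Pmepa1, and IL-6 + TGFb1 gave 0.98 for Bmpr1a, -1.76 for Nrp1 and 0.98 for Pmepa1.

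With IL-21, 1 of the 32 compared genes was at least 2-fold higher than medium, against 0.482% of all compared genes, and 0 were at least 2-fold lower, against 0.109%. The gene on the higher side was Bmpr1a, which reached the brightness limit only on the treated arrays. With log2(value + 16) Bmpr1a was at 0.95, and 0 genes were then 2-fold higher. At 1.5-fold, 1 gene (Bmpr1a) was higher, or 3.12%, against 2.04% of all compared genes, and 3 (Nrp1, Lrrc32 and Smad6) were lower, or 9.38%, against 0.5%. Smad6 was below the brightness limit on both treated arrays and short of 1.5-fold with quantile normalization (-0.56), centring (-0.56) and log2(value + 16) (-0.57), and with a brightness limit at the 60th percentile it was not compared, so that 2 genes were left on the lower side in each of these settings. With IL-6 plus TGFb1, 0 genes were at least 2-fold higher, against 0.673%, and 2 (Nrp1 and Lrrc32) were at least 2-fold lower, or 6.25%, against 0.364%. Nrp1 was below the brightness limit on the IL-6 plus TGFb1 array. At 1.5-fold, 4 genes (Pmepa1, Bmpr1a, Furin and Smad3) were higher, or 12.5%, against 2.61%, and the same 2 as at 2-fold were lower, against 1%. The share higher by 1.5-fold was thus near that of all compared genes with IL-21 and above it with IL-6 plus TGFb1. Without the brightness limit the genes past 2-fold and 1.5-fold were those just named, now out of 37. The shares of all 19935 genes at 1.5-fold were then 1.17% higher and 0.311% lower with IL-21, and 1.49% higher and 0.577% lower with IL-6 plus TGFb1. At 2-fold they were 0.271% higher and 0.0602% lower with IL-21, and 0.381% higher and 0.201% lower with IL-6 plus TGFb1. With so few genes a share moves by several percent with each of them.

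The 95th percentile of the probe set gaps gives a smaller limit of size that was chosen after the values were seen. Above it lay 2 genes with IL-21, Bmpr1a and Smad3, or 6.25%, against 4.84% of all compared genes, and beyond it on the lower side lay Nrp1, Lrrc32 and Smad6, against 1.55%. With IL-6 plus TGFb1 8 genes lay above it, or 25%, against 6.92% of all compared genes. They were Pmepa1, Bmpr1a, Furin, Smad3, Tgfbr3, Eng, Smad7 and Acvr1b. Nrp1 and Lrrc32 lay beyond it on the lower side, against 2.2%. Of these genes, Smad6 reached the brightness limit only on the medium array and Bmpr1a only on the treated arrays. Nrp1 was below that limit with IL-6 plus TGFb1. With a brightness limit at the 60th percentile Smad6 was not compared, which left Nrp1 and Lrrc32 on the lower side with IL-21. The median difference of the 32 genes was 0.05 with IL-21, where that of all compared genes was 0.04, and 0.13 with IL-6 plus TGFb1, where that of all compared genes was 0.02. Over all 37 genes the median was 0.04 with IL-21 and 0.05 with IL-6 plus TGFb1, and that of all 19935 genes was 0.00 in each.

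**Figure D4:**
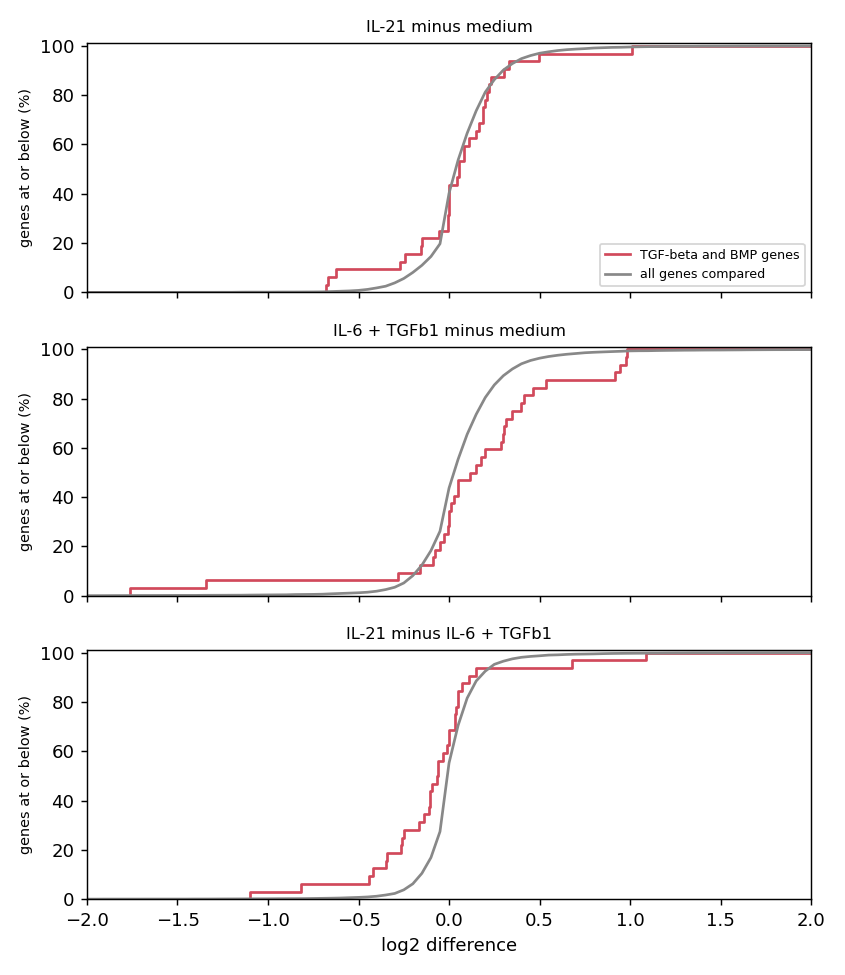
Cumulative share of genes (percent) at or below each log2 difference, for the 32 compared TGF-beta and BMP genes (red) and all 11003 compared genes (grey), in the 3 comparisons. In IL-6 + TGFb1 minus medium the red line runs to the right of the grey over most of the higher differences, with medians of 0.13 for the TGF-beta and BMP genes and 0.02 for all compared genes, and in IL-21 minus medium these medians were 0.05 and 0.04.

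The direct comparison of the treated cultures leaves out the medium array. On the lower side with IL-21, Furin was the 1 gene past 2-fold, against 0.191% of all compared genes, and on the higher side Nrp1 was the 1 gene past 2-fold, against 0.264%. At 1.5-fold Pmepa1 joined Furin on the lower side, so that 6.25% of the 32 genes lay there, against 0.527%. Lrrc32 joined Nrp1 on the higher side, again 6.25%, against 0.918%. Bmpr2 (-0.44), Smad3 (-0.42) and Tgfbr3 (-0.35) followed with lower values with IL-21, and together with Furin (-1.10) and Pmepa1 (-0.82) they were the 5 genes beyond the 95th percentile of the probe set gaps on that side, or 15.6%, against 1.74%. Tgfbr3 lay close to that limit, at -0.351 against 0.347 in size, and 4 genes were left without it with centring (-0.307) and with log2(value + 16) (-0.345). On the other side were Nrp1 and Lrrc32 with 1.09 and 0.68, against 2.55%. The median difference of the 32 genes was -0.06, where that of all compared genes was 0.00. The IL-6 plus TGFb1 array was the brightest of the 3 for 17 of the 32 genes, or 53.1%, against 29.3% of all compared genes. A gene with a tie for the highest value was counted for no array, which lowers these shares. Some leads were small, such as 0.01 log2 units for Smad4 and 0.03 for Bambi over the next array. The IL-21 array was brightest for 6 genes, or 18.8%, against 33% of all compared genes, and the medium array for 7 genes, or 21.9%, against 21.9%.

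**Figure D5:**
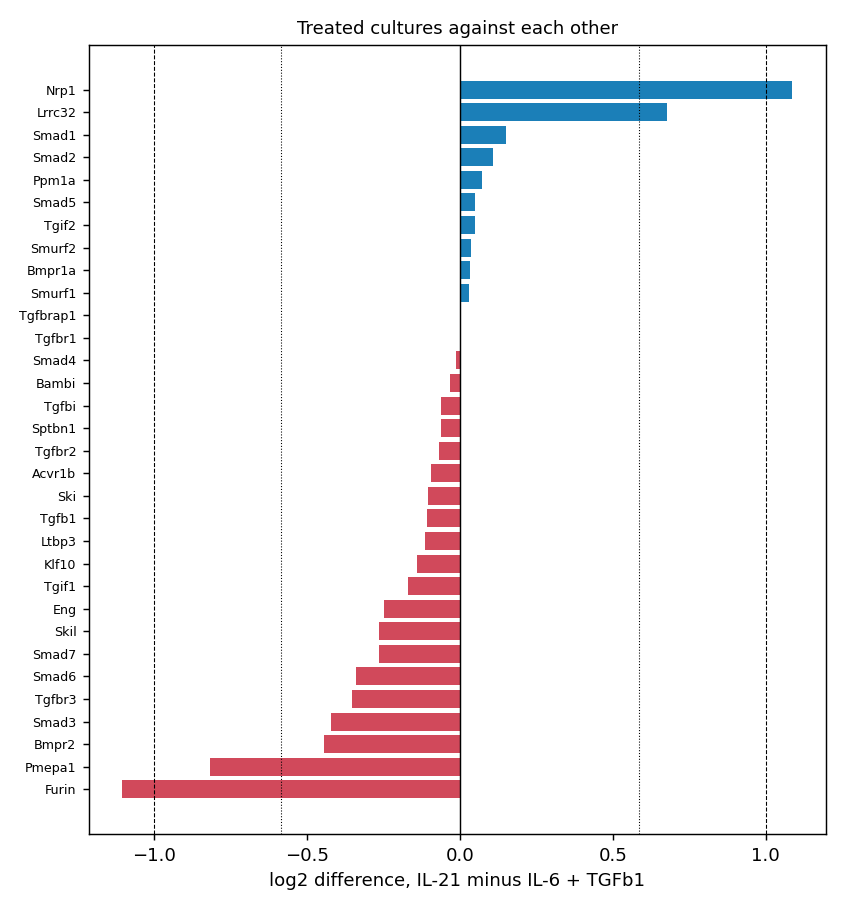
Log2 difference of IL-21 minus IL-6 + TGFb1 for the 32 compared genes, in order of the difference; dotted lines mark 1.5-fold and dashed lines 2-fold. Nrp1 (1.09) and Lrrc32 (0.68) stood at the higher end, and Furin (-1.10) and Pmepa1 (-0.82) at the lower end.

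Other genes of the pathway were taken from 8 lists of 152 genes, of which 140 were on the arrays and 100 were bright enough to compare. Against medium, 2 of these 100 were 2-fold higher or more with IL-21 and 1 was 2-fold lower or more, against 0.482% and 0.109% of all compared genes. With IL-6 plus TGFb1 there were 4 on the higher and 2 on the lower side, against 0.673% and 0.364%. All of these belonged to the list of known TGF-beta or BMP targets, in which 22 genes were compared. The lists were chosen with earlier results of these data known, so this does not set target genes apart from the other lists. The remaining 7 lists held no gene past 2-fold against medium, which at those shares does not set so few genes apart from all compared genes. These lists covered other ligands (5 compared), other receptors (4), latency and activation (10), extracellular antagonists (4), Smad partners (16), ubiquitin ligases, phosphatases and adaptors (23), and the branch that does not use Smads (16).

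Among the target genes, Timp1, an inhibitor of matrix metalloproteinases, had an intensity of 161 with IL-21, 699 with IL-6 plus TGFb1 and 86.9 with medium. The epithelial membrane protein gene Emp1 had 279.6 with IL-21, 1188 with IL-6 plus TGFb1 and 162 with medium. Both stood out on the IL-6 plus TGFb1 array, although Timp1 with IL-21 and both genes with medium were below the brightness limit. Gata3, the Th2 transcription factor whose expression TGF-beta is known to restrain, had 2451 with IL-21, 453 with IL-6 plus TGFb1 and 1513 with medium. It was thus lowest in the culture that received TGFb1, which received IL-6 as well. Tgm2, which encodes a transglutaminase that has been tied to the activation of latent TGF-beta, had 3699 with IL-21, 2424 with IL-6 plus TGFb1 and 876 with medium, and was highest with IL-21. Further target genes past 2-fold in some comparison were Il9, Ifng and Ifitm3, named after their values were seen. Their differences from medium were 0.05 with IL-21 and 1.24 with IL-6 plus TGFb1 for Il9, -1.16 with IL-21 and -1.99 with IL-6 plus TGFb1 for Ifng, and 1.05 with IL-21 and 0.90 with IL-6 plus TGFb1 for Ifitm3. The other compared targets stayed short of 2-fold and are not given here, apart from Foxp3. Foxp3, shown above as a regulatory T cell marker, is also in this target list. Its value was lowest with IL-6 plus TGFb1, with a difference from medium of -0.84. Unlike for Gata3, a low value here is opposite to the known part of TGF-beta in the development of regulatory T cells. In the latency and activation list, Itgb3, the integrin beta-3 chain that pairs with alpha-v to bind the TGF-beta propeptide, had 868 with IL-21, 382 with IL-6 plus TGFb1 and 704 with medium. It was at least 2-fold higher with IL-21 than with IL-6 plus TGFb1, at 1.18, as was Nrp1.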

How the data were processed

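RNA of 3 cultures was labelled with biotin by an Affymetrix whole-transcript kit and hybridized by a service company, per the labels' protocols. The deposited values are linear intensities, 1 per probe set and array. Their unit was read from the values, and the authors' summarization, background correction and normalization are not given in the sources used here. Their genome build was mm8, per the submitters' processing notes, while coordinates printed here are those of the RefSeq start-site table (GRCm38.p6).

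Of 28815 probe sets, 21780 had 1 gene symbol in the platform annotation, 1605 several and 5430 none. Only the first kind was used, and where a gene had several, the 1 with the highest mean log2 value was taken. Of the 37 genes only Smurf2 had several probe sets, and all 37 matched RefSeq by Entrez identifier with the same symbol. No further normalization was applied. With 1 array per group there was no test, and the number of arrays limits the precision. Exact ties between arrays, found on all 3 arrays for 2908 probe sets, put some differences at 0. Alternatives were quantile normalization, centring, another pseudocount (16), raised low values, other brightness limits and other probe set rules. Other pathway genes were named when past 2-fold in a comparison, at most 4 per list, except that Il9, Ifng and Ifitm3 were added beyond this limit after their values were seen. Foxp3 was named as a regulatory T cell marker. The genes, lists and alternatives were chosen with earlier results of these data known. The calculations were tested on simulated data, with differences planted only in bright probe sets and larger than most reported here. Small differences and dim probe sets were thus not covered. Python 3.11.15, numpy 2.4.6 and pandas 2.3.3 were used.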

Additional observations from a re-analysis of the deposited data

How the results depend on the processing

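Each count and median was computed under 8 other settings, 176 values in all, of which 170 stayed close to those reported. A count was close within 1.5 times, and a median or single difference within the median gap between probe sets of a gene. The probe set gaps, with their 95th percentiles, were those of the reported setting and were not computed anew for the others. With quantile normalization the median of the compared TGF-beta and BMP genes in IL-21 minus medium was -0.026 (0.054 as reported), and that of all compared genes -0.01. The number above the 95th percentile of probe set gaps in that comparison was then 1 (Bmpr1a), since Smad3 was at 0.40. Also, 1 gene, Bmpr1a at 1.01, was at least 2-fold higher with IL-6 plus TGFb1 than with medium. With centring on array medians 1 gene was 2-fold higher in that comparison too, namely Pmepa1 at 1.01. With log2(value + 16), 0 genes were at least 2-fold higher with IL-21. Those shifts concern values close to a limit or to 0. Without the brightness limit the median in IL-6 plus TGFb1 minus medium was 0.048 over all 37 genes, where 0.131 was reported for the 32 compared genes. That median thus depends on whether the dim genes are included.

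Of 753 single differences, 714 stayed within the median probe set gap and 39 moved by more, 35 of them with quantile normalization, and none past 1.5-fold changed sign. Small differences changed sign with quantile normalization for 4 genes with IL-21 (Smad2, Smad5, Smurf2 and Skil) and 4 with IL-6 plus TGFb1 (Smad1, Smad4, Smad5 and Smurf2), and with centring for 4 with IL-21 (Tgfbr1, Bambi, Ppm1a and Tgif1) and 2 with IL-6 plus TGFb1 (Tgfbr1 and Tgfbrap1). Between the treated cultures, Tgfbrap1 and Smurf1 changed sign with quantile normalization and Bambi and Smad4 with centring, and averaging probe sets turned Smurf2 with IL-6 plus TGFb1. All of these were reported at sizes up to 0.08. Nrp1 in IL-6 plus TGFb1 minus medium ranged from -1.84 to -1.66, Lrrc32 from -1.41 to -1.32, Furin from 0.92 to 0.97, Pmepa1 from 0.93 to 1.01 and Smad3 from 0.85 to 0.94. The IL-6 plus TGFb1 array was brightest for 17 of 32 genes with quantile normalization (34% of all compared genes), 15 of 32 with centring (22.1%), 15 of 28 with the limit at the 60th percentile (30.9%) and 20 of 37 without a limit (24.9%). With quantile normalization Acvr1b was no longer beyond the 95th percentile of probe set gaps with IL-6 plus TGFb1, and with the limit at the 60th percentile Eng was not compared, so that 7 genes were left in each. No paired analysis was possible because each group had 1 array. The lack of replicate arrays limits every difference, and the dim values of Nrp1, Bmpr1a, Smad6 and Tgfbi are the least well measured.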
